A study of Mus musculus with 6 samples.

Results

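The annexin family was read out as 8 genes chosen by name, Anxa1, Anxa2, Anxa3, Anxa4, Anxa5, Anxa6, Anxa7 and Anxa11, of the 12 annexin genes with a row in a table of 55401 genes. The table holds RNA-seq counts for 6 mouse libraries, 3 to a set (A and B), named here by set and replicate (A1 to A3, B1 to B3). The libraries were made with Smart-seq2, which amplifies full-length cDNA from few cells, from sorted live CD45+ Lin- cells of WT mice that carried CD49b with FcεRIα or IgE, the gate for basophils. In the model, MC903, a vitamin D analogue that provokes dermatitis, was put on the ears at 2 nmol in 10 µL of ethanol daily (day 0 to 6), with ethanol only for controls. The labels do not say which set received MC903, so each difference is given as B against A. The labels name blood as the tissue, whereas the design text names ear skin. The protocol mentions pooled RNA without saying what was pooled, and each library is also marked 10x Genomics in its description. Age, strain and sex of the mice, and whether a library is 1 animal or a pool, were not stated in the labels, so any p-value covers the spread between these libraries alone, which may be technical. The annexins were proposed for description with their levels in these same libraries known. Their values are therefore a description.

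Annexins are proteins that bind membranes rich in acidic phospholipids, above all phosphatidylserine, when calcium rises. Each has a conserved core of repeats, which carries the calcium sites, behind a variable N-terminal part, which binds partners such as S100 proteins. In leukocytes they are known for resolving inflammation (Anxa1), for sealing torn membranes and for marking dying cells (Anxa5). Basophils themselves release granules on a calcium signal.

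Per transcript length Anxa2 had the highest level of the 8 in every library, and Anxa1 and Anxa2 were the members whose levels in set B all lay above those in set A. The bases before their start sites are shown for this reason, beside those of Anxa5, the next most abundant member, whose sets overlapped. Each line gives 250 bases upstream of the start in RefSeq on build GRCm38.p6, 5′ to 3′ on the gene's strand, at chr19:20390672-20390921 (minus strand) for Anxa1, chr9:69453433-69453682 (plus strand) for Anxa2 and chr3:36475888-36476137 (minus strand) for Anxa5. Neither the labels nor the file header name the build behind the deposited counts. Capitals mark matches to the motifs searched.

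Anxa1: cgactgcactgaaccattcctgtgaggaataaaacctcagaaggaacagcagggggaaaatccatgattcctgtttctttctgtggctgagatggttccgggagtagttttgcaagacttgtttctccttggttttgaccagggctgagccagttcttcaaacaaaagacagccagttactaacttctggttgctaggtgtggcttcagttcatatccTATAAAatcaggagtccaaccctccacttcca

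Anxa2: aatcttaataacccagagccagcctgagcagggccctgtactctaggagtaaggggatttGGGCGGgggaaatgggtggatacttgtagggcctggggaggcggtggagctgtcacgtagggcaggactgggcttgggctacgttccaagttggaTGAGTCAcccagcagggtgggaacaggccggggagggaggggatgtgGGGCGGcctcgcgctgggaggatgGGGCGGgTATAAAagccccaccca

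Anxa5: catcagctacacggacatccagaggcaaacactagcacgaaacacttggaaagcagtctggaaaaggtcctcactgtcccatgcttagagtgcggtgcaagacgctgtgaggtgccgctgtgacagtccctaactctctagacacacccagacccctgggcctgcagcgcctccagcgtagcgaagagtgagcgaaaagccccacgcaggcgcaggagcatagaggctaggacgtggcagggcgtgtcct

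Both strands were searched for 6 motifs. The TATA box was TATAAA, and the CCAAT box was the letters of its name. The GC box was searched as GGGCGG. The AP-1 element was TGAGTCA. The cyclic AMP response element was searched as TGACGTCA. The core of a glucocorticoid response site was AGAACA. They were chosen after the sequences had been seen. TATAAA stood in the Anxa1 window, from position -32, and in the Anxa2 window, from position -17, where -1 is the last base before the start. It occurs in 12.4% of the 32851 windows of this length. The Anxa2 window also held TGAGTCA at -95 (4.46% of windows) and GGGCGG at -190, -48 and -24 (32.7% of windows), and in it the GC box at -24 and the TATA box lie next to each other without overlap. None of the 6 motifs was found in the Anxa5 window. Of the 8 members, 6 had an entry in the promoter table. TATAAA was in none of the windows of the other 4, Anxa4, Anxa5, Anxa7 and Anxa11. GGGCGG was also in both Anxa7 windows and in the Anxa11 window. AGAACA (16.1% of windows) was in 1 of the 2 Anxa4 windows and in no window of the other members, Anxa1 included. A match is a string of letters in a window, and binding was not measured.

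The 6 libraries held 46137963 to 63956911 counts in total. Levels are in CPM, a count scaled to the library's total. In this unit 3 counts, taken as the floor, are 0.0469 to 0.0650. Smart-seq2 counts carry no molecular identifiers, so a floor covers counting error only. Libraries within a set differed widely. The correlation of log2(CPM + 1) between libraries, across 9196 genes that are not independent replicates, ran from 0.461 (A1 with A2) to 0.741 (B2 with B3). Values near 0 in single libraries were common: of the 5285 tested genes with a mean of 10 to 100 CPM, 80.2% had at least 1 library under 1 CPM, against 20.0% of those with a mean of 100 to 300 CPM and 0.245% of those with a mean of 300 to 1000 CPM. Most of the basophil markers were nearly absent from set A. The 8 of the list summed to 1.71, 58.7 and 118 CPM in A1, A2 and A3 and to 2524, 1619 and 1090 CPM in B1, B2 and B3, and Fcer1a, the IgE-binding receptor chain, was at 0.0726, 0 and 0 CPM in A. Gata2, a transcription factor on the list, had the higher mean in A, with overlap between the sets, at 0.109, 45.7 and 116 CPM in A1, A2 and A3 and 42.8, 1.15 and 24.8 CPM in B1, B2 and B3, and made up nearly all of the A3 sum. Ms4a2, which encodes another chain of that receptor, was at 11.9 CPM in A2 and 0 in A1 and A3. The libraries are therefore called by their set, and no difference is read as a change within basophils. In such bulk libraries fewer cells of a type and less RNA per cell cannot be told apart.

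Anxa1 (ENSMUSG00000024659, chromosome 19), a glucocorticoid-induced protein that damps leukocyte recruitment through formyl peptide receptors, was at 243, 620 and 393 CPM in A1, A2 and A3 and at 1243, 1224 and 766 CPM in B1, B2 and B3. Every B library lay above every A library. The means were 419 ± 190 CPM in A and 1078 ± 270 CPM in B (SD, n = 3 each), 2.58 times as high in B. The fitted log2 difference was 1.27 (SE 0.37), and with 1 library left out it ran from 1.02 to 1.68.

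Anxa2 (ENSMUSG00000032231, chromosome 9), which forms a complex with S100a10 at the plasma membrane and takes part in exocytosis and in plasmin formation, was at 754, 1202 and 1301 CPM in A1, A2 and A3. It was at 2007, 1419 and 1512 CPM in B1, B2 and B3. The sets did not overlap, but the lowest B value and the highest A value lay close together, at 1419 and 1301 CPM. The means were 1086 ± 291 CPM in A and 1646 ± 316 CPM in B (SD, n = 3 each), and the fitted log2 difference was 0.52 (SE 0.23), with 0.33 to 0.64 when 1 library was left out.

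Anxa5 (ENSMUSG00000027712, chromosome 3), the phosphatidylserine binder used in the laboratory to stain dying cells, was the steadiest member. It was at 263, 348 and 434 CPM in A1, A2 and A3 and at 407, 593 and 492 CPM in B1, B2 and B3. B1 lay below A3, so the sets overlapped. The fitted log2 difference was 0.43 (SE 0.27). Over the 6 libraries the SD of its log2(CPM + 1) was 0.406, against 0.466 for Anxa2 and 0.927 for Anxa1.

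Anxa7 (ENSMUSG00000021814, chromosome 14), an annexin with a long N-terminal part that binds sorcin and was described in granule fusion, had its higher mean in A. It was at 204, 99.4 and 130 CPM in A1, A2 and A3 and at 148, 58.4 and 37.7 CPM in B1, B2 and B3. B1 lay above A2 and A3, so the sets overlapped. The means were 145 ± 53.7 CPM in A and 81.3 ± 58.5 CPM in B (SD, n = 3 each), with a fitted log2 difference of -0.96 (SE 0.74). That difference was below 0 with any 1 library left out, from -1.73 without B1 to -0.54 without A1.

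**Figure D1:**
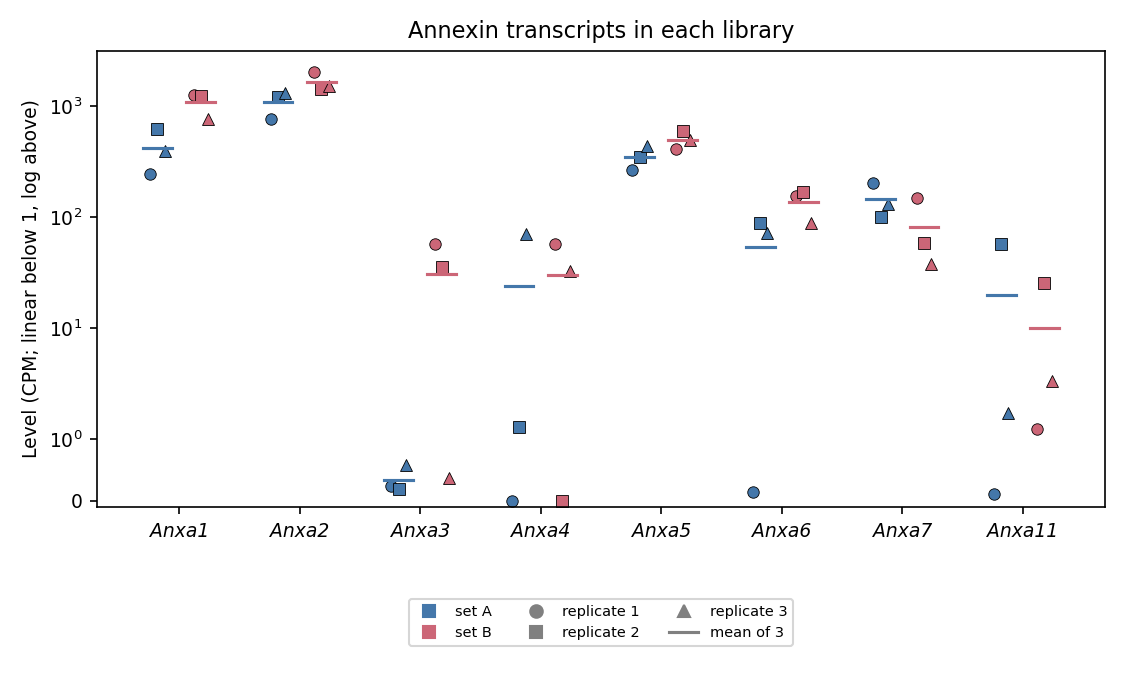
Level of each annexin in CPM (y axis, linear below 1 and logarithmic above) in the 3 libraries of set A and the 3 of set B; the shape gives the replicate number and the line the mean of 3. Anxa1 and Anxa2 have all B points above all A points, while Anxa3, Anxa4, Anxa6 and Anxa11 have single libraries at or near 0.

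Anxa3 (ENSMUSG00000029484, chromosome 5), found in the granules of human neutrophils, was almost confined to 2 libraries. It was at 0.236, 0.189 and 0.585 CPM in A1, A2 and A3 (13, 10 and 27 counts) and at 56.7, 35.6 and 0.375 CPM in B1, B2 and B3 (2821, 2103 and 24 counts). B1 and B2 were far above every A library, and B3 was within the range of A. The mean of B, 30.9 ± 28.5 CPM (SD, n = 3), therefore describes no single library. The fitted log2 difference was 6.42 (SE 2.53).

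Anxa6 (ENSMUSG00000018340, chromosome 11), the annexin with a duplicated core, was at 0.145, 88.9 and 72.0 CPM in A1, A2 and A3 and at 154, 168 and 87.5 CPM in B1, B2 and B3. A1 stood apart with 8 counts, and B3 lay below A2, so the sets overlapped. The fitted log2 difference of 1.29 (SE 1.63) was 0.69 without A1.

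Anxa4 (ENSMUSG00000029994, chromosome 6), an annexin best known from epithelia, was at 0, 1.29 and 70.2 CPM in A1, A2 and A3 and at 56.8, 0 and 32.7 CPM in B1, B2 and B3. Each set thus held a library at 0 and at least 1 over 30 CPM. The fitted log2 difference was 0.34 (SE 3.28) and took either sign when 1 library was left out, from -0.52 without B1 to 5.47 without A3. The span of a long non-coding gene on the opposite strand, Gm44036, overlaps that of Anxa4. Gm44036 had 1202 counts in A2, 175 in B3 and 0 elsewhere. The counting is not stated to use strand, and shared exons were not looked for. Whether reads of one gene were counted for the other was not tested.

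Anxa11 (ENSMUSG00000021866, chromosome 14), whose long N-terminal part binds the calcium sensor encoded by Pdcd6, was at 0.109, 57.3 and 1.73 CPM in A1, A2 and A3 and at 1.23, 25.5 and 3.35 CPM in B1, B2 and B3. Replicate 2 was the highest library of either set. The fitted log2 difference of -1.09 (SE 2.48) turned to 3.39 without A2. Of the 50-base stretches of its transcript, 26.0% also stand in transcripts of Gm2260 or Gm2274, which had at most 77 counts in a library, so its counts are uncertain to that extent. The other 7 transcripts shared no such stretch with another gene in GENCODE M21, each transcript being read on its own strand only.

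All 8 members passed the filter on low counts. edgeR's quasi-likelihood test called 0 of the 8 at an adjusted p under 0.05, and it called 0.0217% of the 9196 genes tested as higher in B and 0 as lower. At an unadjusted p under 0.05 it counted 2 of the 8 (Anxa1 and Anxa3, both higher in B), where 5.05% of all genes tested counted as higher and 1.32% as lower. DESeq2 called the same 2 members, with adjusted p of 0.0223 for Anxa1 and 0.00453 for Anxa3, and it called 5.91% of its 8314 genes with an adjusted p as higher and 1.25% as lower. Limma-voom called 0 of the 8 and 2.12% of all genes tested as higher and 0.0761% as lower. The adjusted p of Anxa1 ran from 0.0223 to 0.998 over the alternatives tried. The sets did not overlap for 2 of the 8 members, both higher in B, and for 10.2% of all genes tested as higher in B and 3.91% as lower. Since the members were chosen with these levels known, nothing is read from these counts. The median log2 difference of the 8 was 0.47, with 6 above 0, and the median over all genes tested was -0.06. The latter was -0.16 with RLE scaling and 0.05 with library size alone, and the 8 members kept their signs under both. By limma-voom the order of the medians turned, with 0.80 for the 8 and 0.87 over all genes tested, and with 1 library left out the annexin median ran from 0.32 (without A1) to 1.14 (without A2).

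**Figure D2:**
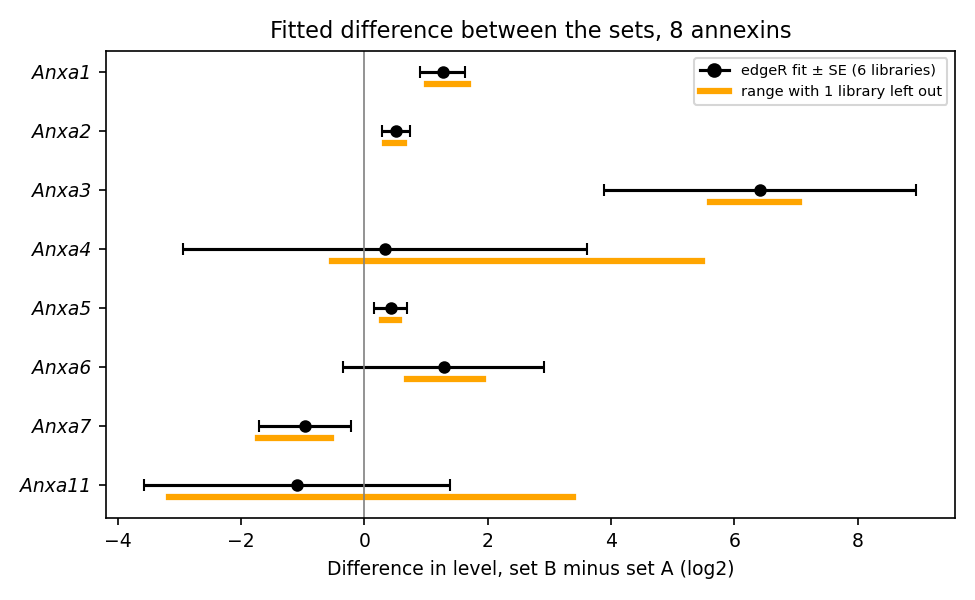
Fitted difference in level between the sets (x axis, log2, B minus A) for each annexin, with its standard error (black) and the range of the same fit when 1 of the 6 libraries was left out (orange). Anxa1, Anxa2 and Anxa5 have narrow ranges above 0, while the ranges of Anxa4 and Anxa11 span 0.

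Compared per length (CPM per kilobase of the transcript with the longest coding sequence in GENCODE M21), 3 members made up nearly all of the annexin transcripts. Anxa2 led with a level of 521, 831 and 899 CPM per kilobase in A1, A2 and A3 and 1387, 981 and 1045 in B1, B2 and B3. It ranked highest in 6 of 6 libraries. Anxa1 and Anxa5 took the next 2 places in every library. Anxa5 stood above Anxa1 in A1 and A3, by 152 against 145 and by 251 against 235 CPM per kilobase, and Anxa1 stood above Anxa5 in A2 and in every B library. In set A these neighbours did not differ beyond their spread (250 ± 113 for Anxa1, 201 ± 49.5 for Anxa5, CPM per kilobase, SD, n = 3). In set B Anxa1 was at 644 ± 162 and Anxa5 at 287 ± 54.0 CPM per kilobase (SD, n = 3). Anxa7 (38.9), Anxa6 (38.2), Anxa4 (13.2), Anxa3 (9.79) and Anxa11 (6.22 CPM per kilobase, mean of 6 libraries) followed, and neighbours among these 5 did not differ beyond their spread. The order of the means was the same per kilobase of coding length.

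Of the CPM per kilobase summed over the 8 members, the share held by Anxa1, Anxa2 and Anxa5 together was 92.1%, 93.7% and 92.7% in A1, A2 and A3 and 93.0%, 94.5% and 96.4% in B1, B2 and B3. Anxa8, at 56.7 CPM per kilobase in A2, is not part of that sum. Anxa2 alone held 45.1% (B2) to 60.2% (A3). The share of Anxa1 was 16.3%, 24.7% and 15.7% in A and 29.2%, 33.6% and 24.7% in B, so that A2 and B3 had nearly the same share. Anxa7 held 7.91%, 2.29% and 3.0% in A and 2.00%, 0.924% and 0.701% in B, with every A library above every B library. Such shares do not depend on how libraries are scaled to each other. The summed level of the 8, which does, was 1464, 2417 and 2403 CPM in A1, A2 and A3 and 4073, 3523 and 2931 CPM in B1, B2 and B3, without overlap.

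**Figure D3:**
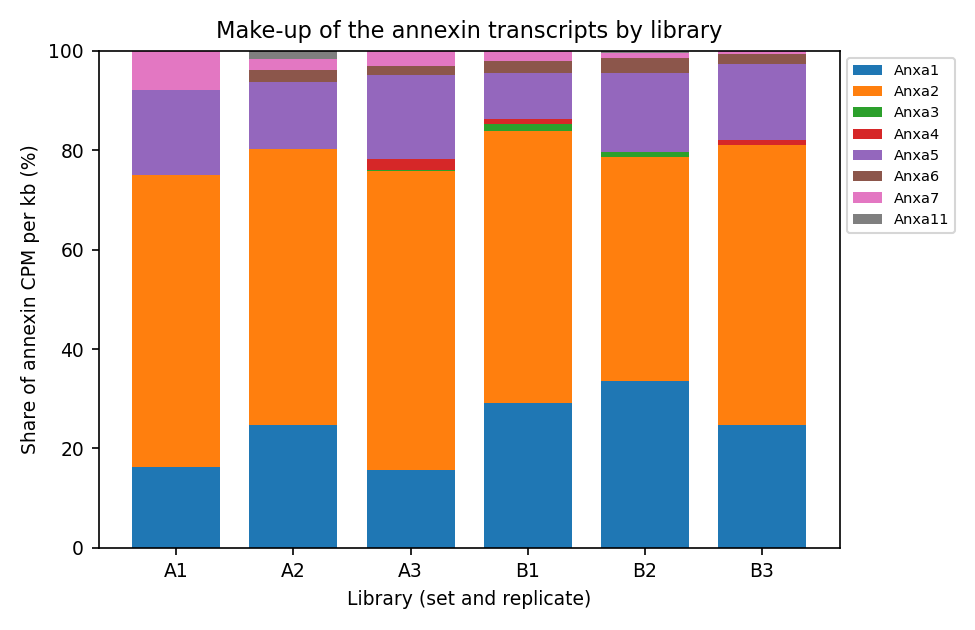
Share of the CPM per kilobase summed over the 8 annexins (y axis, percent, from 0 to 100) held by each of them in each library (x axis, set and replicate). Anxa2 holds 45.1% to 60.2% and is the widest band in every library, and the Anxa7 band is wider in the A libraries than in the B libraries.

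The other 4 annexin genes with a row in the table did not reach the test. Anxa9 and Anxa13 had 0 counts in all 6 libraries, each below the floor of 3 counts. Anxa10 had 32 counts in B2 and 0 elsewhere. Anxa8 had 5636 counts (107 CPM) in A2 and 0 or 4 counts in the other 5, and per length it was above Anxa6 in that library, at 56.7 against 35.7 CPM per kilobase.

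Genes of annexin partners and receptors were taken from a list of 16 made by name, of which 11 could be tested. edgeR called 0 of the 11 and counted 1 at an unadjusted p under 0.05 (Plau), DESeq2 called Plau, and limma-voom called 0. Over all genes tested 5.05% counted as higher in B at that unadjusted p and DESeq2 called 5.91% as higher, so 1 of 11 is near the background. The list's median log2 difference was 0.34, with 7 above 0. Plau, a protease that activates plasminogen, had no counts in set A, and in B1, B2 and B3 its level was 0.261, 1.74 and 0.250 CPM (adjusted p = 0.508 by edgeR, 2.11e-05 by DESeq2). Its values are so low that they rest on 13, 103 and 16 counts, and it passed the low-count filter through set B alone. Plg, the plasminogen gene, had 0 counts in all 6 libraries, and Plaur, the urokinase receptor, averaged 309 ± 148 CPM in A and 422 ± 111 CPM in B (SD, n = 3).

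S100a10, the light chain of the Anxa2 complex, did not share the order of Anxa2. It was at 215, 332 and 170 CPM in A1, A2 and A3 and at 277, 150 and 204 CPM in B1, B2 and B3, and the fitted log2 difference was -0.29 (SE 0.43, edgeR adjusted p = 1.00). Per length the ratio of Anxa2 to S100a10 was 1.66, 1.71 and 3.62 in A and 3.43, 4.49 and 3.51 in B, and the sets overlapped through A3. S100a11, the partner of Anxa1, had levels of 564, 1115 and 1379 CPM in A1, A2 and A3 and of 1927, 1317 and 1295 CPM in B1, B2 and B3, with A3 above B2 and B3 (fitted log2 difference 0.49, SE 0.32, edgeR adjusted p = 1.00). The ratio of Anxa1 to S100a11 per length was 0.131, 0.170 and 0.0871 in A and 0.197, 0.284 and 0.180 in B, with every B library above every A library. S100a6 and S100a4, further S100 proteins that bind annexins, had log2 differences of -0.00453 and -0.19 (adjusted p = 1.00 by edgeR for both).

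The receptors through which Anxa1 acts in mice, Fpr1 and Fpr2, were detected in both sets. Fpr1 was at 136, 7.09 and 80.5 CPM in A1, A2 and A3 and at 323, 233 and 130 CPM in B1, B2 and B3. Fpr2 was at 0.290, 61.9 and 102 CPM in A1, A2 and A3 and at 197, 146 and 83.7 CPM in B1, B2 and B3. For each gene B3 lay below 1 A library, so the sets overlapped, and neither passed (log2 differences 1.47, SE 1.02, and 1.34, SE 1.54, adjusted p = 1.00 by edgeR for both). Sri, which encodes the Anxa7 partner sorcin, averaged 342 ± 187 CPM in A and 516 ± 50.2 CPM in B (SD, n = 3), with the higher mean in B where Anxa7 had it in A, and its sets overlapped. Pdcd6 was at 173, 67.0 and 341 CPM in the A libraries and 225, 187 and 226 CPM in those of B.

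**Figure D4:**
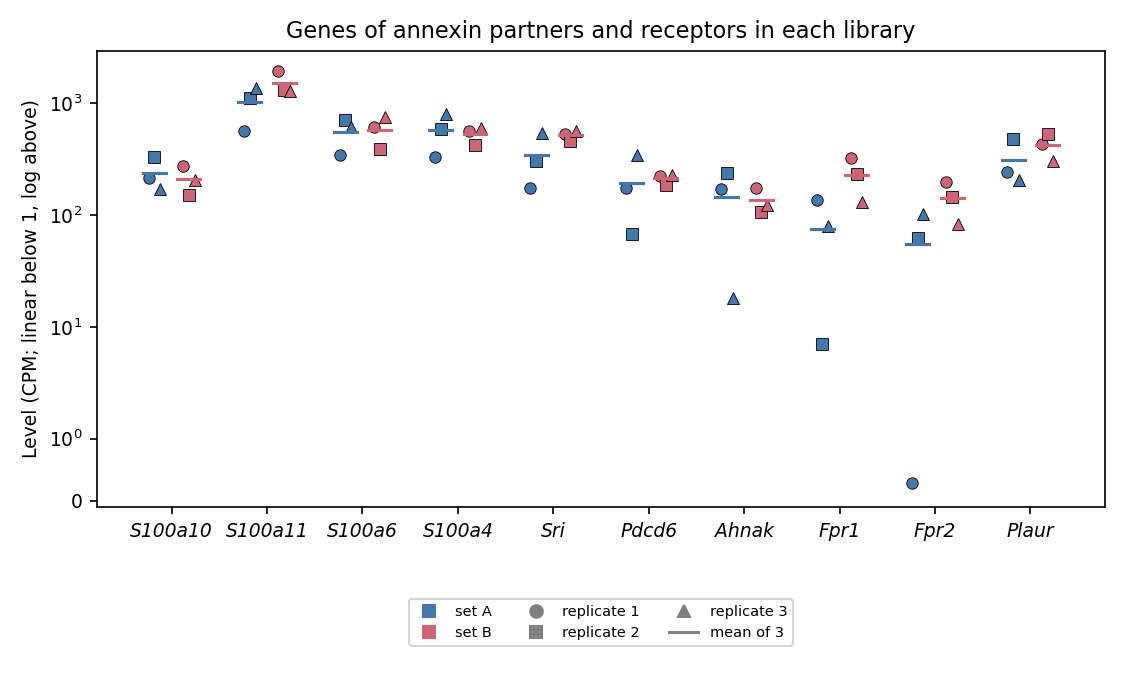
Level in CPM (y axis, linear below 1 and logarithmic above) of 10 genes that encode annexin partners, receptors or membrane scaffolds, in each library of set A and set B, with the mean of 3 as a line. The A and B points overlap for all 10 genes shown.

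Other genes of the annexins' membrane functions showed no call by edgeR. Of 17 membrane repair genes 8 could be tested, with 0 called by any of the 3 tools and a median log2 difference of -0.11. At an unadjusted p under 0.05 edgeR counted 0 and DESeq2 1, as higher in B. Of the 8 tested, 3 (Chmp3, Capns1 and Pdcd6ip) had no overlap between the sets. Over all genes tested 10.2% were higher in B without overlap and 3.91% lower, and 3 of 8 are too few to set against these shares. Chmp2a, of the complex that sheds wounded membrane, overlapped, at 423 ± 159 CPM in A and 427 ± 55.8 CPM in B (SD, n = 3). Chmp3, of the same complex, was at 0.290, 0.132 and 39.9 CPM in A1, A2 and A3 and 298, 74.0 and 101 CPM in B1, B2 and B3. Capns1, the small calpain subunit, was also higher in B, at 13.2 ± 8.26 CPM in A and 44.1 ± 4.09 CPM in B (SD, n = 3). Pdcd6ip, which encodes the adaptor ALIX, was lower in B, at 71.0 ± 43.6 CPM in A and 12.4 ± 11.2 CPM in B (SD, n = 3). Dysf, which encodes the repair protein dysferlin, had 0 counts in all 6 libraries. Of 20 genes for the exposure or recognition of phosphatidylserine 8 could be tested, again with 0 called by any tool, and a median of 0.66. Here too edgeR counted 0 at an unadjusted p under 0.05 and DESeq2 1, as higher in B. Cd300a, an inhibitory receptor for phosphatidylserine, was at 753, 720 and 482 CPM in A1, A2 and A3 and 624, 672 and 622 CPM in B1, B2 and B3. Cd300lf, of the same receptor family, was at 11.9, 0.265 and 75.7 CPM in A1, A2 and A3 and 375, 136 and 140 CPM in B1, B2 and B3. Its sets did not overlap (fitted log2 difference 2.85, SE 1.63, edgeR adjusted p = 1.00). Of the 8 tested, Cd300lf, Ano6, Tmem30a and Plscr3 were higher in B without overlap, and none was lower without overlap. Over all genes tested 10.2% were higher and 3.91% lower in this way, and 8 genes are too few to set against these shares. Of 9 copines, calcium-dependent membrane binders of another family, 3 could be tested and 0 were called by any tool, with 0 at an unadjusted p under 0.05 and a median of 0.44. With so few genes that median ran from -4.79 without B3 to 11.5 without A3, so it gives no direction.

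Since Anxa1 is known as a glucocorticoid-induced gene, 9 further genes of that response were read out. Of the 7 tested, edgeR called 0 and counted 1 as higher (Dusp1) and 1 as lower (Sgk1) at an unadjusted p under 0.05, DESeq2 called Dusp1 (adjusted p = 0.0263), and limma-voom called 0. The shares over all genes tested were 5.05% higher and 1.32% lower at the unadjusted p and 5.91% higher by DESeq2, and counts of 1 in 7 are too few to set against them. Dusp1, a phosphatase that restrains MAP kinases, was at 692, 804 and 1107 CPM in A1, A2 and A3 and at 1615, 1842 and 1390 CPM in B1, B2 and B3. Sgk1, a kinase, had 331, 156 and 129 CPM in A1, A2 and A3 and 110, 46.1 and 67.6 CPM in B1, B2 and B3. Tsc22d3, which encodes GILZ, stood at 1109, 538 and 397 CPM in A1, A2 and A3 and at 1191, 1324 and 755 CPM in B1, B2 and B3, and the sets overlapped. The list's median log2 difference was 0.18 and turned to -0.07 without B3.

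Marker lists of leukocytes are given beside Anxa1 and Anxa2. Of the neutrophil and monocyte markers edgeR called none. At an unadjusted p under 0.05 it counted 5 of the 11 neutrophil and 1 of the 6 monocyte markers tested. All of these were higher in B, where 5.05% of all genes tested counted as higher. DESeq2 called 4 neutrophil markers and 1 monocyte marker as higher in B, against 5.91% of its 8314 genes, and limma-voom called 0. Of 12 neutrophil markers, 6 were higher in every B library than in every A library and 0 were lower, where 10.2% of all genes tested were higher without overlap and 3.91% lower. Their sum was 2401, 7721 and 9741 CPM in A1, A2 and A3 and 23510, 12800 and 12970 CPM in B1, B2 and B3, although Ly6g was at 0 in all 6. S100a8 was the largest part of that sum in every library, at 1259, 4455 and 5378 CPM in A1, A2 and A3 and 13750, 7357 and 7251 CPM in B1, B2 and B3. Relative to the sum Anxa1 was at 0.101, 0.0802 and 0.0404 in A and 0.0529, 0.0956 and 0.0590 in B, so the sets overlapped on this scale. Anxa2 on the same scale was at 0.314, 0.156 and 0.134 in A and 0.0854, 0.111 and 0.117 in B, with every B library below every A library. The sum of 8 monocyte markers was 1853 to 2508 CPM in A and 2316 to 3534 CPM in B, so the sums overlapped. Of the 8, 2 were higher in every B library and 1 lower, beside the same 10.2% and 3.91%. Relative to the monocyte sum Anxa1 was at 0.131, 0.334 and 0.157 in A and 0.537, 0.497 and 0.217 in B, and the sets overlapped there too. Of 8 basophil markers 5 were higher in every B library (10.2% of all genes tested), each of the 5 under 2 CPM throughout A. The 2 genes that edgeR called over all 9196 tested were Mcpt8 and Prss34 of this list. Both were higher in B (edgeR adjusted p = 0.0125 and 0.0155). DESeq2 called these and Cpa3, Fcer1a and Cd200r3 as higher, against 5.91% of its 8314 genes. Cpa3, Fcer1a and Cd200r3, like Ltf of the neutrophil list, had 0 to 9 counts in each A library. They passed the low-count filter through set B, so nothing is read from setting their calls beside that share. Limma-voom called Fcer1a as higher, against 2.12% of all genes tested. The sum of the 10 T cell markers was higher in A, at 952 to 1238 CPM in A and 303 to 639 CPM in B. Of the 10, 3 were lower in every B library (3.91% of all genes tested) and 0 were higher. Trac and Cd8b1 of this list counted as lower at an unadjusted p under 0.05 by edgeR, as did 1.32% of all genes tested. DESeq2 also called both as lower (adjusted p = 0.0119 and 0.00038), against 1.25% of its 8314 genes. The sums of B cell markers (3287 to 5188 CPM in A, 3663 to 4981 in B), NK cell markers (427 to 1165 in A, 473 to 885 in B) and platelet markers (859 to 1455 in A, 536 to 912 in B) overlapped between the sets, and so did those of eosinophil, mast cell, dendritic cell and skin markers. Il5ra of the eosinophil list was at 0 CPM throughout A and at 3.80, 1.93 and 1.53 CPM in B1, B2 and B3. It was called higher by DESeq2 (adjusted p = 5.44e-07) and limma-voom (adjusted p = 0.0481), but not by edgeR. With no counts in A, it passed the low-count filter through set B. The erythroid sum was 270 to 630 CPM in A and 109 to 179 CPM in B. Without overlap, 2 of 7 erythroid, 2 of 6 platelet, 1 of 6 NK cell and 1 of 6 dendritic cell markers were lower in B. Ppbp of the platelet list and Hba-a1 of the erythroid list were called lower by DESeq2 (adjusted p = 0.0297 and 0.018), beside the same 1.25%. Both, and Ighd of the B cell list, counted as lower at an unadjusted p under 0.05 by edgeR. The part of these cell types in the levels of Anxa1, Anxa2 and Anxa3 was not tested.

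**Figure D5:**
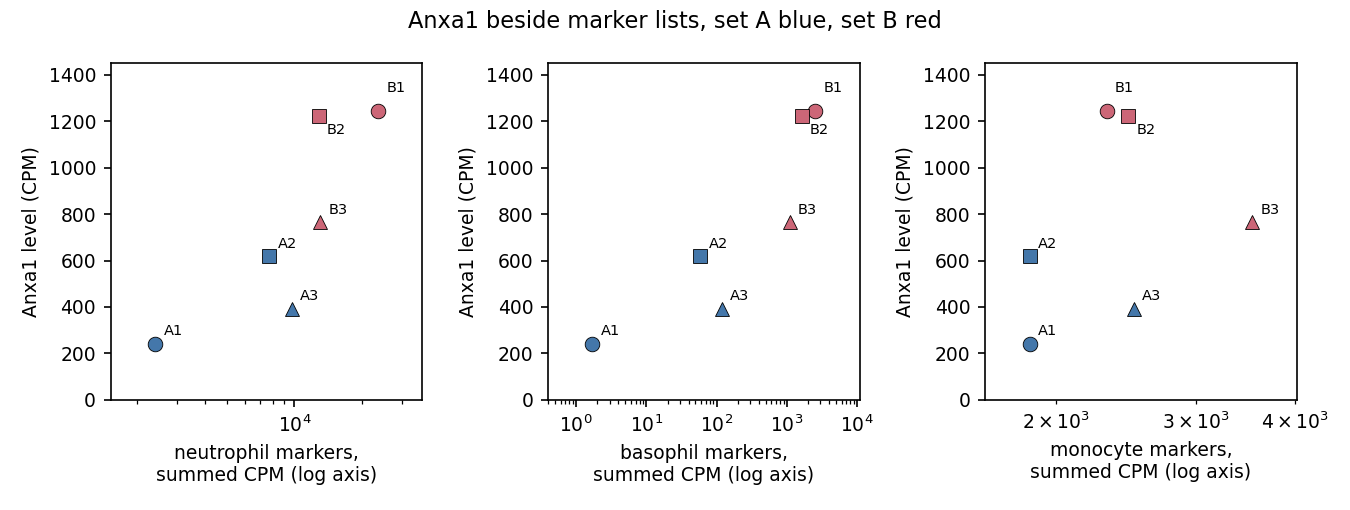
Level of Anxa1 in CPM (y axis, from 0) against the summed CPM of the neutrophil, basophil and monocyte markers (x axes, logarithmic) in each library. The B libraries lie to the right of the A libraries for neutrophil and basophil markers, and the sets overlap along the axis for monocyte markers.

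Profiles over the 6 libraries were compared as the root mean square difference of log2(CPM + 1) after centring each gene on its own mean. Among the 8 members Anxa2 and Anxa5 were most alike (0.320), followed by Anxa1 with Anxa2 (0.522) and Anxa1 with Anxa5 (0.622), and Anxa4 and Anxa11 were least alike (4.0). For the 3 members that varied most, the nearest genes with a mean of at least 50 CPM were Cdc123 (0.143), Glipr2 (0.210) and Cnp (0.235) for Anxa6. They were Abhd16a (0.866), Pgk1 (1.14) and Nipbl (1.42) for Anxa4 and Mindy3 (1.21), Trim30b (1.36) and C1qb (1.56) for Anxa3. The near neighbours of Anxa6 shared its value under 1 CPM in A1, at 0.145, 0.218 and 0.308 CPM for Cdc123, Glipr2 and Cnp. Those of Anxa4 shared its values near 0 in A1 and A2.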

How the data were processed

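RNA-seq counts per Ensembl gene were analysed for 6 libraries, grouped as set A and set B from their titles, with 3 libraries each. The authors deposited raw counts, 1 column per library, not normalized. The submitters' processing notes name cutadapt 1.9, HISAT2 2.2.1 and DESeq2 but not what each did. Counter, build, annotation and strand setting: not given in the sources used here. CPM is a count divided by the library's total and multiplied by 1000000. Identifiers were paired with symbols for 55141 of 55401 rows.

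B was compared with A by edgeR 4.0.16 in R 4.3.3 on all 9196 genes that passed filterByExpr, with TMM scaling, glmQLFit (robust=TRUE), glmQLFTest and Benjamini-Hochberg adjustment (threshold 0.05). Standard errors are the absolute log2 difference divided by the square root of F. DESeq2 1.42.0 with default settings, limma-voom (limma 3.58.1) with quality weights, other scalings and filters, a replicate block, counts divided by 4 and each library left out were alternatives.

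Lengths, overlaps and 50-base matches are from GENCODE M21, and promoters are from RefSeq. The members and lists were chosen with earlier results of these data known. Named genes were all annexins, list members past the threshold and up to 6 of the most abundant per list, and the 3 genes nearest in profile to the 3 most variable members. Others (Plau, Plg, Dysf, Capns1, Chmp3, Pdcd6ip, Cd300lf, Ano6, Tmem30a, Plscr3, Sgk1 and the marker genes named) were chosen after their values were seen. No library was left out.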

Additional observations from a re-analysis of the deposited data

How the results depend on the processing

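Anxa1, Anxa2, Anxa3, Anxa5, Anxa6 and Anxa7 kept their direction under every alternative that gave a value, with log2 differences of 1.02 to 1.68, 0.331 to 0.643, 3.83 to 7.05, 0.291 to 0.562, 0.694 to 3.07 and -1.73 to -0.537. Anxa4 turned to -0.233 without A replicate 1, -0.202 without A replicate 2, -0.519 without B replicate 1 and -0.987 with a replicate block. Anxa11 turned to 3.39 without A replicate 2, 1.12 by limma-voom and 0.972 with a replicate block. With 1 library left out Anxa4 ran from -0.519 to 5.47 and Anxa11 from -3.17 to 3.39. The stricter filter removed Anxa4 and counts divided by 4 removed Anxa3, so these gave no value. The cause was not tested in any of these cases.

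Over all genes edgeR called 2 as higher in B (0 to 1 with 1 library left out, 0 with a replicate block), DESeq2 called 491 as higher and 104 as lower, and limma-voom called 195 and 7. DESeq2 called 2 annexins, 1 partner gene (Plau) and 1 glucocorticoid gene (Dusp1). Same-numbered libraries of the sets did not deviate together (correlations of 0.00999, -0.0244 and 0.00698 for replicates 1, 2 and 3), so the block rests on a shared number only.

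The annexin median, 0.472, was 0.795 by limma-voom, 0.746 with a replicate block and 0.318 to 1.14 with 1 library left out. The median over all genes tested moved as well, from -0.0554 to 0.8736 by limma-voom, 0.4829 with a replicate block and 0.2765 with no filter. With 1 library left out it ran from -0.0745 to 0.1596. The list medians are to be read beside these. The partner median was 0.462 with library size alone, 0.175 with the stricter filter, 0.221 with counts divided by 4 and 0.228 to 0.686 with 1 library left out. The phosphatidylserine median was 2.84 with no filter, 1.31 with the stricter filter, 4.09 by limma-voom, 3.76 with a replicate block and 0.814 to 1.84 with 1 library left out. The copine median was 3.61, 2.69 and 2.60 with no filter, limma-voom and a replicate block, and -4.79 to 11.5 with 1 library left out. The membrane repair median was 0.300 by limma-voom, 0.364 with a replicate block and -0.201 to 1.21 with 1 library left out, and the glucocorticoid median was 0.815 with a replicate block, 0.777 by limma-voom, 0.0177 with RLE scaling and -0.0733 to 0.409 with 1 library left out. With TMM scaling the mean CPM of each annexin in each set moved by less than 1 SD. Single libraries decided several means: Anxa4 in A fell from 23.8 to 0.643 CPM without A replicate 3, Anxa11 in A from 19.7 to 0.921 without A replicate 2 and in B from 10.04 to 2.29 without B replicate 2, Anxa7 in B from 81.3 to 48 without B replicate 1, and Anxa3 in B from 30.9 to 18 without B replicate 1. Anxa4 in B was 29.8 CPM, and 16.3 without B replicate 1 and 44.7 without B replicate 2. For the members with a mean under 100 CPM (Anxa3, Anxa4, Anxa6 and Anxa11) at least 1 library lay under 1 CPM, and edgeR detected no difference at this spread.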
